A study of Mus musculus with 14 samples.

Results

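The genes described here are those of the dystrophin complex and utrophin: Dmd, Utrn, Dag1, Sgca, Sgcb, Sgcd, Dtna and Sntb1. They were taken by gene name from the deposited expression tables, and all 8 were found among the 49585 genes of each table. Hind limb muscle RNA of wild-type (WT) mice and of mice lacking Myf6 (Myf6 KO), uninjured or injured, was sequenced in 12 libraries, 3 to a group. Myf6 (MRF4) is a myogenic transcription factor of mature muscle fibres, and the series asks how it takes part in myokine signalling and in keeping the muscle stem cell pool. Libraries of a genotype carry 3 animal numbers, each once with the letter L (uninjured) and once with R (injured), and the number is read here as naming the animal. The knockout allele, the kind of injury, the time after it and the age of the mice are not given in the sources used here. WT and KO animals carry different numbers, so genotype and any litter or batch cannot be told apart. A peak list from 1 ChIP-seq library of Flag-tagged Myf6 in primary myotubes, grown from satellite cells of adult muscle, with 1 control, was used as well.

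The dystrophin complex links the actin cytoskeleton of the muscle fibre to the extracellular matrix. Dystrophin (Dmd) binds actin inside the fibre and dystroglycan (Dag1) at the membrane, dystroglycan binds laminin outside, and the sarcoglycans (Sgca, Sgcb, Sgcd and their partners) form a membrane subcomplex whose loss causes limb-girdle muscular dystrophy. Dystrobrevin (Dtna) and the syntrophins (Sntb1 and others) are adaptors on the cytoplasmic side, and utrophin (Utrn) is a paralogue of dystrophin that in adult fibres is concentrated at the neuromuscular junction and is also made by other cells such as those of blood vessels.

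A few promoter windows are shown because they bear on the Myf6 peaks at these genes: Sgca and Sgcb each had their only peak close to the start of the gene, and the Dmd window precedes the listed Dmd start that lay nearest to a Dmd peak. A Dag1 peak also had its summit close, 1780 bp after the nearest listed Dag1 start. Each is the 250 bases before a transcript start, 5′ to 3′ on the gene's strand, from RefSeq on build GRCm38.p6, with every E-box (CANNTG, the motif that myogenic factors bind, the same on both strands) in capitals. The windows are chrX:82948620-82948869 on the plus strand for Dmd, chr11:94976328-94976577 on the minus strand for Sgca and chr5:73647738-73647987 on the minus strand for Sgcb.
Dmd: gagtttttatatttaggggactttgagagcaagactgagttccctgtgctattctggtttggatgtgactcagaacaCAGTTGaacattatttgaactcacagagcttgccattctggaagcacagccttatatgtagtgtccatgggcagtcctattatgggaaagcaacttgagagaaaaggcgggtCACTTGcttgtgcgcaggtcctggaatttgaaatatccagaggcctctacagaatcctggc
Sgca: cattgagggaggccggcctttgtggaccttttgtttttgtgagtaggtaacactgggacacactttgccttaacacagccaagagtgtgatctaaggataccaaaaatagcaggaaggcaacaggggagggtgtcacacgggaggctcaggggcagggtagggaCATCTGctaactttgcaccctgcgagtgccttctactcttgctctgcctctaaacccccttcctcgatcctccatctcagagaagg
Sgcb: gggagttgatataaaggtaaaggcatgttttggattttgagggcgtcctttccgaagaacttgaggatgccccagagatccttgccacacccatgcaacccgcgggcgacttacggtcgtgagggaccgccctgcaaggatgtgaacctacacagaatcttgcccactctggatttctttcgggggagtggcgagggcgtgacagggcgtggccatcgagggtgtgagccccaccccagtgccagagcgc
The Dmd window held 2 E-boxes, CAGTTG starting 173 and CACTTG starting 61 bases before the start, the Sgca window held 1, CATCTG starting 86 bases before it, and the Sgcb window held 0. E-boxes are common: 66.2% of 32841 windows of this length held at least 1. The Dmd window also held 1 CArG box, the motif of serum response factor, which 1.47% of the windows held. None of the members' windows held the N-box TTCCGG on either strand, which 12.03% of all windows held. RefSeq windows were matched for 6 of the 8 members. Those of Dag1, Utrn and Sgcd are not printed. The listed start lay 8153 bp inside the gene for Utrn and 610126 bp inside it for Sgcd, and the Dmd start shown lay 134206 bp inside the longest gene model. The Utrn window, which may not be a promoter, held 7 E-boxes, some of them overlapping, and 0.0761% of all windows held 7 or more. The Sgcd window held 2, and each Dag1 window held 1.

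Depth and RNA composition differed between libraries. The recovered totals ran from 1880087 reads in uninjured WT replicate 2 to 49392472, so that 3 reads, taken as the floor of detection, correspond to between 1.60 and 0.0607 RPM, the reads of a gene scaled to 1000000 reads per library. Myf6 itself, the targeted gene, had 46.2, 25 and 111 RPM in uninjured WT libraries, against 1.86, 3.46 and 2.27 RPM in their KO counterparts (limma log2 change -3.90, SE 0.51, adjusted p = 0.0215). Injured libraries had 47.9, 121 and 72.5 RPM of it for WT, against 3.32, 2.88 and 3.02 RPM for KO (limma log2 change -4.22, SE 0.33, adjusted p = 0.00697). The 11 myofibre markers, which include Ckm and Acta1, summed to between 111309 and 171338 RPM, so the tissue label was borne out in every library. Mitochondrial genes took between 3.63% and 23.2% of the reads. In KO muscle the second animal had the highest share in both states (15.3% and 23.2%), against 3.63% to 6.76% in the other KO libraries. WT libraries had 18.1%, 22.3% and 13.8% in uninjured and 12.5%, 8.35% and 14.8% in injured muscle. Each KO library outside the second animal was thus below every WT library.

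None of the members passed the test in any comparison. Of the 8 members, 7 reached the expression filter (1 RPM or more in 3 or more libraries of a fit) and Sntb1 did not. In uninjured muscle 0 of 7 members had a limma adjusted p under 0.05, where 0.281% of 12460 genes did, and 0 of 7 had an unadjusted p under 0.05, where 14.2% did. In injured muscle it was again 0 of 7, where 0.269% of 12625 genes passed with adjustment and 10.3% without. DESeq2 and edgeR on the recovered reads also called 0 of 7 in both comparisons. The counts of all genes they called are given in the last paragraph. The size of the uninjured values depends on the scaling, since the median of all genes was -0.18 on the RPM scale and 0.01 with DESeq2. In the authors' deposited table the uninjured log2 changes, KO over WT, were -0.17 for Dmd, -0.38 for Utrn, 0.59 for Dag1, 0.33 for Sgca, 0.30 for Sgcb, 0.14 for Sgcd and 0.42 for Dtna, all with q = 0.986, each above the limma value given below. In injured muscle that table had 0.39 for Dmd and 0.16 for Dag1 (q = 0.994). The KO and WT ranges overlapped for each of the 7 members in both comparisons, while they did not overlap for 21.7% of genes in uninjured and 16.9% in injured muscle. The median log2 change of the 7 members, KO minus WT, was 0.04 in uninjured muscle, against -0.18 for all genes, and 0.06 against 0.01 in injured muscle. Counts of reads per transcript length were not used, so levels are compared between groups and not between genes. In whole muscle, fewer cells of a type and less RNA per cell cannot be told apart.

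Dystrophin RNA varied more within groups than between them. In uninjured muscle the WT libraries had 29.4, 23.4 and 61.6 RPM of Dmd (ENSMUSG00000045103.17), and the KO libraries had 23.2, 12.2 and 59.4 RPM. In injured muscle the WT values were 22.6, 37.9 and 40.8 RPM, and the KO values 57.5, 19.3 and 53.8 RPM. Each group had low and high libraries, and the uninjured KO group alone spanned a 4.87-fold range. The means were 43.5 ± 21.0 RPM in injured KO, 38.1 ± 20.5 in uninjured WT, 33.7 ± 9.77 in injured WT and 31.6 ± 24.7 in uninjured KO (SD, n = 3 each), and no neighbours in that order differed by more than their SD. KO minus WT, the log2 change was -0.42 (SE 0.56, 95% interval -1.69 to 0.84, limma adjusted p = 0.781) in uninjured and 0.25 (SE 0.45, interval -0.80 to 1.31, limma adjusted p = 0.883) in injured muscle. These intervals include a change of 1 log2 unit downward in uninjured and upward in injured muscle. Without uninjured KO replicate 2 the uninjured value was 0.09, and without uninjured KO replicate 3 it was -1.01.

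Utrophin RNA was less spread than dystrophin RNA in uninjured muscle and did not pass the test either. Utrn (ENSMUSG00000019820.9) was at 29.5, 21.8 and 39.8 RPM in uninjured WT and at 19.6, 17.1 and 24.0 RPM in uninjured KO, with 2 of the 3 KO libraries below every WT library. Injured WT libraries had 27.1, 17.9 and 28.7 RPM, and injured KO libraries 27.5, 38.7 and 22.2 RPM, where the second KO animal held the highest value. The log2 change, KO minus WT, was -0.54 (SE 0.32, interval -1.25 to 0.18, limma adjusted p = 0.488) in uninjured and 0.25 (SE 0.27, interval -0.40 to 0.89, limma adjusted p = 0.797) in injured muscle. Injured minus uninjured, Utrn differed by -0.12, -0.27 and -0.46 log2 units in the WT animals and by 0.47, 1.13 and -0.11 in the KO animals. The difference between these injury effects was 0.78 (SE 0.42, unadjusted p = 0.0863, limma adjusted p = 0.99989), and did not pass.

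The ratio of Utrn to Dmd reads within a library does not depend on the library's total. It was 1.002, 0.932 and 0.646 in uninjured WT, 0.847, 1.40 and 0.404 in uninjured KO, 1.20, 0.471 and 0.705 in injured WT and 0.479, 2.003 and 0.413 in injured KO libraries. The second KO animal had the highest ratio of all libraries in each state, and the third KO animal the lowest. The log2 ratio differed between KO and WT by -0.11 (SE 0.56, exact permutation p = 0.8, two-sided) in uninjured and by -0.0036 (SE 0.82, exact permutation p = 1) in injured muscle, where the smallest p that 3 against 3 libraries can give is 0.1.

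**Figure D1:**
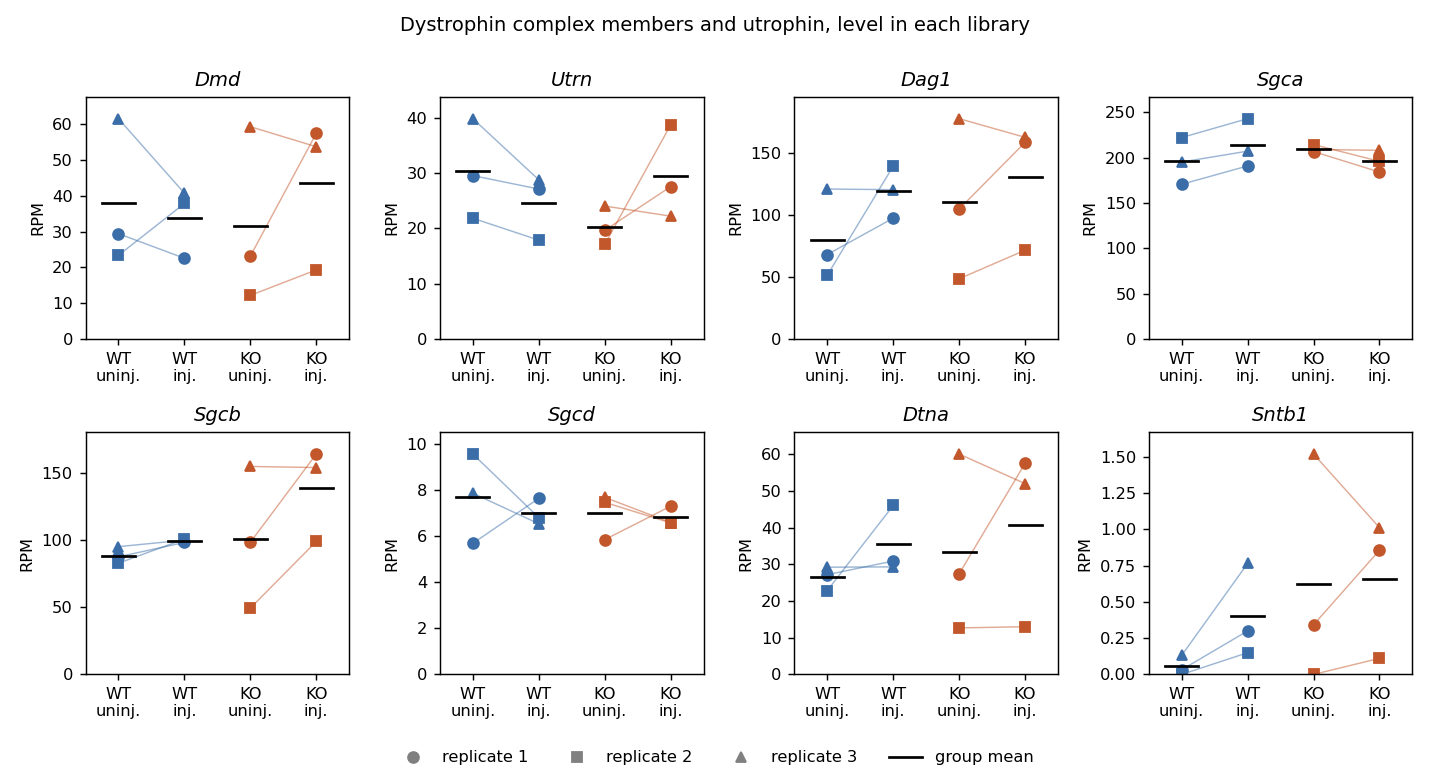
Level of each member in RPM (vertical axis, from 0, a separate scale for each gene) in the 4 groups, with 1 symbol per animal, lines joining the uninjured and injured libraries of an animal number, and black bars for group means (n = 3). The square of the second KO animal is the lowest KO point for Dmd, Dag1, Sgcb and Dtna in both states, and the Sgca points of all groups lie between 171 and 243 RPM.

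Dystroglycan RNA was also widely spread within groups. Dag1 (ENSMUSG00000039952.15) was at 68.2, 51.6 and 121 RPM in uninjured WT and at 105, 48.6 and 178 RPM in uninjured KO. Injured WT libraries had 97.6, 140 and 121 RPM, and injured KO libraries 159, 71.7 and 163 RPM. The group means were 80.3 ± 36.3, 110.5 ± 64.8, 119 ± 21.0 and 131 ± 51.5 RPM (SD, n = 3) in uninjured WT, uninjured KO, injured WT and injured KO. Neighbours in this rising order differed by less than their SD. Uninjured and injured WT, which are not neighbours in it, differed by more than the SD of either. KO minus WT, the log2 change was 0.36 (SE 0.48, interval -0.73 to 1.45, limma adjusted p = 0.785) in uninjured and 0.06 (SE 0.34, interval -0.75 to 0.87, limma adjusted p = 0.973) in injured muscle.

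The 3 sarcoglycans did not share a pattern. Sgca (ENSMUSG00000001508.15) encodes alpha-sarcoglycan, which is made in striated muscle. It was at 171, 222 and 195 RPM in uninjured WT, 207, 215 and 209 in uninjured KO, 191, 243 and 207 in injured WT and 184, 196 and 208 in injured KO libraries. The coefficient of variation over the uninjured KO libraries was 1.88%, which only 0.278% of 8644 genes with a mean of at least 5 RPM reached or undercut, where the median gene varied by 33.2%. In the other groups it was 13.2% in uninjured WT, 12.5% in injured WT and 6.11% in injured KO. Sgcb varied less than Sgca in both WT groups (7.01% and 1.29%), and Sgcd varied by 6.05% in injured KO. The log2 change of Sgca, KO minus WT, was 0.11 (SE 0.23, interval -0.41 to 0.63) in uninjured and -0.12 (SE 0.17, interval -0.52 to 0.28) in injured muscle, with limma adjusted p = 0.873 and 0.848.

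Sgcb (ENSMUSG00000029156.11) encodes beta-sarcoglycan, which is made in many tissues. It was at 87.7, 83.0 and 95.3 RPM in uninjured WT and at 98.4, 100.9 and 100.2 RPM in injured WT, a tight pair of groups. The KO libraries were spread, at 98.5, 49.4 and 155 RPM in uninjured and 164, 99.1 and 154 RPM in injured muscle. Injured KO muscle had the highest mean, 139 ± 35.1 RPM against 99.8 ± 1.28 RPM in injured WT (SD, n = 3). The log2 change there was 0.44 (SE 0.22, interval -0.09 to 0.97, unadjusted p = 0.0887, limma adjusted p = 0.555), the lowest unadjusted p of the members in the KO against WT comparisons. Without injured KO replicate 2 it was 0.67 with a limma adjusted p = 0.0153, in a fit that called 2343 of 12312 genes. In uninjured muscle the log2 change was 0.04 (SE 0.39, limma adjusted p = 0.977).

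Sgcd (ENSMUSG00000020354.15), delta-sarcoglycan, was low and even, at 5.70, 9.57 and 7.87 RPM in uninjured WT, 5.86, 7.48 and 7.69 in uninjured KO, 7.65, 6.81 and 6.54 in injured WT and 7.31, 6.58 and 6.60 in injured KO libraries. The highest of these values, in uninjured WT replicate 2, rests on 18 reads. KO minus WT, the log2 change was -0.10 (SE 0.34, limma adjusted p = 0.922) in uninjured and -0.03 (SE 0.17, interval -0.43 to 0.37, limma adjusted p = 0.971) in injured muscle. The uninjured value was above 0 under DESeq2 (0.14), edgeR (0.12) and TMM scaling (0.07), so no direction can be given for it.

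Of the adaptors, Dtna (ENSMUSG00000024302.15) encodes alpha-dystrobrevin, which binds dystrophin and the syntrophins. It was at 27.2, 22.9 and 29.2 RPM in uninjured WT, and at 27.4, 12.7 and 60.1 RPM in uninjured KO. Injured muscle had 30.9, 46.0 and 29.3 RPM in WT and 57.5, 13.0 and 52.0 RPM in KO. In KO the second animal was low in both states and the third was high in both. The log2 change was 0.07 (SE 0.49, interval -1.03 to 1.18, limma adjusted p = 0.964) in uninjured and -0.02 (SE 0.54, interval -1.31 to 1.27, limma adjusted p = 0.995) in injured muscle.

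Sntb1 (ENSMUSG00000060429.11), beta-1-syntrophin, was low in every library and at or under the floor in some of them. It had 1, 0 and 4 reads in uninjured WT, 9, 0 and 65 in uninjured KO, 4, 4 and 20 in injured WT and 32, 2 and 50 in injured KO libraries. On the RPM scale the highest value was 1.52, in uninjured KO replicate 3, and uninjured WT replicate 2 with 0 reads allows up to 1.60 RPM. In all, 4 libraries were therefore at or under the floor of 3 reads. In the authors' deposited table, its log2 change, KO over WT, was 2.88 (SE 1.93, q = 0.986) in uninjured and 0.78 (SE 0.97, q = 0.994) in injured muscle.

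**Figure D2:**
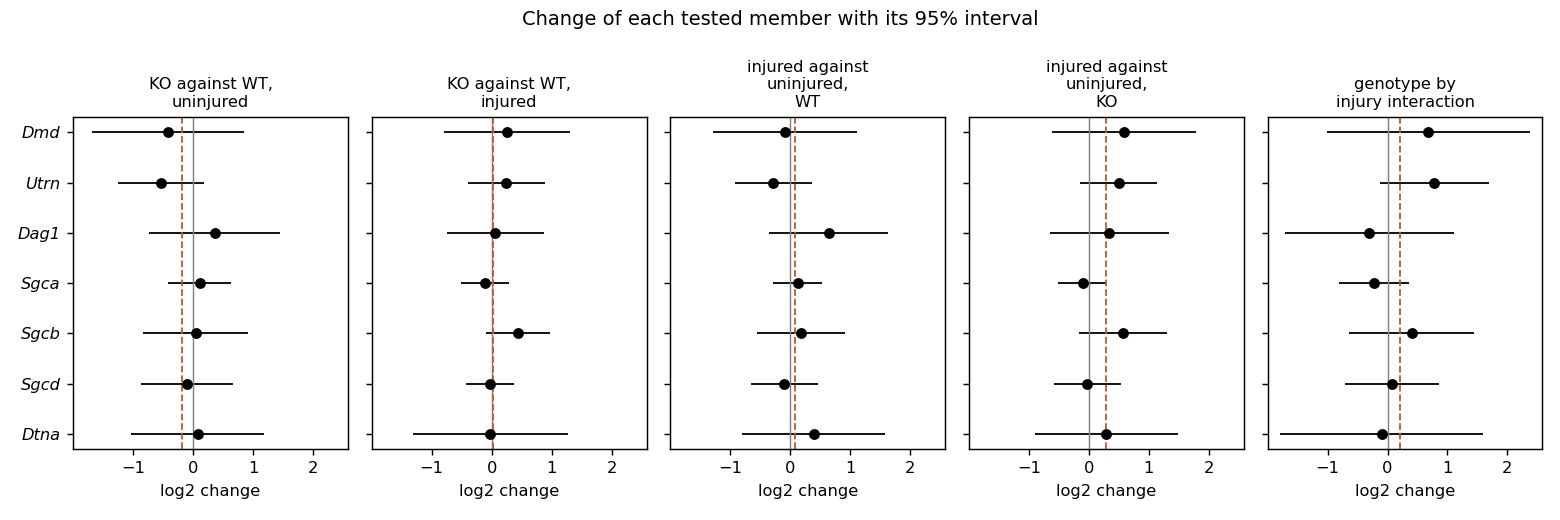
Log2 change of the 7 tested members (points) with 95% intervals (bars) in the 5 comparisons, on log2(RPM + 1) from limma, where the dashed line is the median over all genes tested. Every interval includes 0, and those of Dmd and Dtna are the widest in each panel.

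Injury did not move any member past the threshold. In WT, 0 of 7 members and 0% of 13337 genes passed by limma, and in KO it was again 0 of 7 and 0%. At an unadjusted p under 0.05 there were likewise 0 of 7 members, where 1.29% of genes in WT and 3.51% in KO passed. With the animal number as a replicate block, no member passed after adjustment, but 1 of 7 in each genotype had an unadjusted p under 0.05, where 2.39% of genes in WT and 6.67% in KO did. They were Dag1 in WT (unadjusted p = 0.0384, limma adjusted p = 1) and Sgcb in KO (unadjusted p = 0.0251, limma adjusted p = 0.565). The values given here are from the fit without the block. For the genotype by injury interaction it was 0 of 7 with and without adjustment, where 0% of genes passed with adjustment and 1.56% without (2.1% with the block, again with 0 of 7 members). The median log2 change of the 7 members, injured minus uninjured, was 0.13 in WT and 0.34 in KO, against 0.09 and 0.29 for all genes. In WT, Dag1 had the largest log2 change of the members, 0.64 (SE 0.46, interval -0.35 to 1.63), from 0.51, 1.42 and -0.01 in the 3 animals. In KO it was Dmd with 0.59 (SE 0.56, interval -0.61 to 1.79), from 1.27, 0.62 and -0.14, followed by Sgcb with 0.57 (SE 0.34) and Utrn with 0.50 (SE 0.30). The limma adjusted p was 1 for every member in WT and between 0.728 and 0.976 in KO.

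Among the members, Dmd, Dag1, Sgcb and Dtna went up and down together from library to library. Their 6 pairwise Pearson's r over the 12 libraries were between 0.80 and 0.88, with Spearman's rho between 0.57 and 0.92. The 12 pairs that join one of them to Utrn, Sgca or Sgcd had r between -0.18 and 0.30. Sntb1, on very few reads, went with them too, with r of 0.82 with Dag1, 0.82 with Sgcb, 0.75 with Dtna and 0.68 with Dmd. The 4 genes were grouped after their values were seen. Genes outside the complex were closer to each of the 4, with r of 0.977 to 0.984 for the closest. The pattern is thus not shown to be particular to the complex, and the share of all genes reaching such r was not counted. The 12 libraries come from 6 animals and share their scaling, so the coefficients are a description and carry no p. Within genotype, r among the 4 was between 0.88 and 0.98 over the 6 KO and between 0.29 and 0.95 over the 6 WT libraries, and it was between 0.70 and 0.92 without both libraries of the second KO animal.

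These genes also varied with the composition of the libraries. Across the 12 libraries, r with the share of reads on mitochondrial genes was -0.83 for Dag1, -0.82 for Dtna, -0.65 for Sgcb, -0.59 for Dmd and -0.75 for Sntb1, against 0.37 for Utrn, -0.13 for Sgca and 0.19 for Sgcd. With the log2 of total reads, r was 0.74 for Dag1, 0.58 for Dmd, 0.58 for Sntb1, 0.55 for Sgcb and 0.52 for Dtna, against 0.18 for Utrn, -0.29 for Sgca and -0.65 for Sgcd. The summed level of 17 genes listed for the glycosylation of dystroglycan, a step needed for laminin binding, also followed them. Its r was 0.86 for Dmd, 0.85 for Dtna, 0.83 for Dag1, 0.82 for Sgcb and 0.65 for Sntb1. The part of depth or of the mitochondrial share in these relations was not tested.

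**Figure D3:**
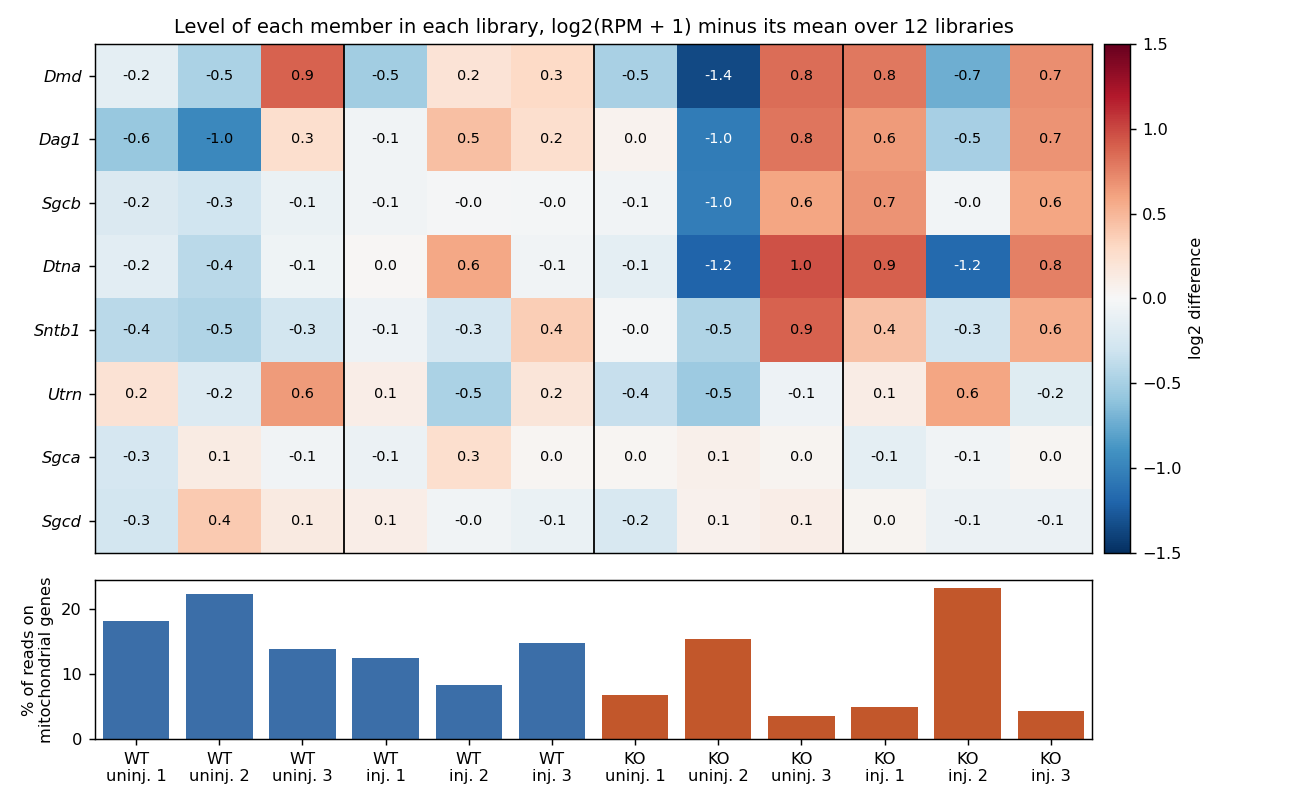
Upper panel, level of each member in each library as log2(RPM + 1) minus its mean over the 12 libraries (colour and printed value). Lower panel, percent of reads on mitochondrial genes, with WT in blue and KO in orange. In the KO libraries Dmd, Dag1, Sgcb and Dtna are lowest in the second animal, which has the highest mitochondrial share of its group (15.3% and 23.2%).

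Beside other genes, the spread of Dmd was wide in every group, at percentiles 82.5 to 94.1, while that of the others differed between groups. In uninjured KO muscle the coefficient of variation was 78.2% for Dmd and 72.6% for Dtna, at percentiles 94.1 and 91.6 of 8644 genes, with Dag1 and Sgcb at 82.1 and 76.0. In uninjured WT it was 53.8% for Dmd (percentile 92.5 of 9218 genes) but 12.3% for Dtna and 7.01% for Sgcb (percentile 7.33), both below the median gene at 23.4%. Sgcb varied by 1.29% over the injured WT libraries, at percentile 0.757 of 9250 genes, where Dag1 was at 58.5.

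Genes whose pattern over the 12 libraries was most like that of a member, among 6977 genes with a mean of at least 10 RPM, were Wdr26 (r = 0.983), Selenot and Ubl3 for Dmd. For Dag1 they were Rps6kc1 (r = 0.984), Mrps2 and Slc35f5, for Sgcb Rnf141 (r = 0.984), Becn1 and Aco1, and for Dtna Idh3b (r = 0.977), Clybl and Mtfr1l. For Utrn they were Cav2 (r = 0.943), which encodes a caveolin of endothelial and other cells, Meox2 (r = 0.932) and Rcbtb2 (r = 0.919). The closest genes to Sgca and Sgcd were less alike, Slc16a3 at r = 0.763 and Psmg1 at r = 0.797. For Sntb1 they were Cop1 (r = 0.937), Tmem201 and Maob, on very few Sntb1 reads.

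Utrn varied with the markers of several other cell types, though not of all. Its r with the summed myofibre markers was -0.77, and with the sums of endothelial, fibroblast and Schwann cell markers it was 0.68, 0.69 and 0.63. With the macrophage and leukocyte list it was 0.62, with smooth muscle and pericyte markers 0.56, with adipocyte markers 0.34, with the synaptic region list 0.16 and with the satellite cell list -0.43. All 7 endothelial markers passed the expression filter, and their sum was 257 to 336 RPM in uninjured WT, 282 to 331 in uninjured KO, 194 to 334 in injured WT and 296 to 576 in injured KO. All 7 Schwann cell markers passed it too, with sums of 524 to 926, 239 to 636, 155 to 505 and 314 to 1774 RPM in the same order. The 6 fibroblast markers, all of which passed it, summed to 501 to 1420, 401 to 934, 932 to 1090 and 787 to 980 RPM. Injured KO replicate 2, which had the highest Utrn of the injured libraries, also had the highest endothelial (576 RPM) and Schwann cell (1774 RPM) sums of all 12. Their part in the Utrn values was not tested.

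None of the other subunits of the complex passed the test. Of 12 further genes 9 were tested by limma, and 0 passed in each direction in both KO against WT comparisons (at an unadjusted p under 0.05, 1 was lower in uninjured and 1 higher in injured muscle), with a median log2 change of 0.12 in uninjured and 0.37 in injured muscle. Drp2, a dystrophin-related protein best known from Schwann cells, had the largest change in uninjured muscle, from 30.4, 19.1 and 39.6 RPM in WT to 15.6, 11.8 and 7.18 RPM in KO. All 3 KO values were below all WT values, as the ranges were apart for 21.7% of all genes, at a log2 change of -1.30 (limma SE 0.39, adjusted p = 0.196). In injured muscle its log2 change was 0.40 (limma SE 0.74, adjusted p = 0.890). In injured KO replicate 2, Drp2 was at 72.1 RPM, against 10.8 and 13.7 RPM in the other injured KO libraries, and its r with the Schwann cell sum was 0.90. For Sntb2, beta-2-syntrophin, the log2 change was 0.51 (SE 0.46) in uninjured and 0.45 (SE 0.17, limma adjusted p = 0.433) in injured muscle. Cav3, the muscle caveolin, had 0.43 (SE 0.27, limma adjusted p = 0.509) in uninjured and -0.10 (SE 0.21, limma adjusted p = 0.907) in injured muscle. Sgcz was at 0 reads in all 12 libraries, which allows up to between 0.0607 and 1.60 RPM.

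Outside the fibre, 9 of 10 matrix ligands of dystroglycan were tested by limma and 0 passed, with a median log2 change of -0.23 in uninjured and 0.01 in injured muscle. At an unadjusted p under 0.05, 2 were lower in uninjured muscle and 0 differed in injured muscle. Agrn, which encodes agrin, an organizer of the neuromuscular junction, was at 34.6, 34.0 and 24.3 RPM in uninjured WT and 16.9, 15.3 and 9.82 RPM in uninjured KO. The log2 change was -1.11 (SE 0.32, limma adjusted p = 0.186), and for Lama5, a laminin alpha chain, it was -0.72 (SE 0.28, limma adjusted p = 0.291). In injured muscle they were -0.52 (SE 0.66) and -0.41 (SE 0.57). Injured WT libraries had 31.7, 18.2 and 37.2 RPM of Agrn, and injured KO libraries 9.45, 59.8 and 11.8 RPM, again with the second KO animal apart from the others.

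Of 20 genes listed for the glycosylation of dystroglycan, 17 were found by name. All 17 were tested by limma and 0 passed, with a median log2 change of -0.20 in uninjured and -0.08 in injured muscle. At an unadjusted p under 0.05, 1 was lower in uninjured muscle, and 1 was higher and 1 lower in injured muscle. B3galnt2, a glycosyltransferase that builds the core on which the laminin-binding sugar is made, was the gene of this list with the largest change in both comparisons. It was at 109, 109 and 126 RPM in uninjured WT and 58.7, 42.0 and 82.3 RPM in uninjured KO, where the log2 change was -0.95 (limma SE 0.30, adjusted p = 0.206). Injured WT libraries had 137, 140 and 145 RPM, and injured KO libraries 74.0, 60.9 and 80.1 RPM, with a log2 change of -0.97 (limma SE 0.17, adjusted p = 0.105). The KO libraries were below the WT libraries in both states, without passing the threshold. The ranges were apart for 21.7% of all genes in uninjured and 16.9% in injured muscle. The share of genes apart in the same direction in both states was not counted.

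Among genes of other membrane linkages and of membrane repair, 17 of 19 were tested by limma in the KO against WT comparisons and 0 passed, with a median log2 change of 0.11 in uninjured and 0.17 in injured muscle. At an unadjusted p under 0.05, 3 were higher and 1 lower in uninjured muscle, and 1 was higher in injured muscle. Des, which encodes desmin, the intermediate filament of muscle, was at 2827, 2452 and 2570 RPM in uninjured WT and 5219, 5116 and 5281 RPM in uninjured KO. Its log2 change was 0.99 (SE 0.24, limma adjusted p = 0.137), against 0.49 (SE 0.36, limma adjusted p = 0.681) in injured muscle. Synm, which encodes synemin, a partner of desmin that also binds dystrobrevin, had 1.09 (SE 0.41, limma adjusted p = 0.273) in uninjured and 1.06 (SE 0.41, limma adjusted p = 0.442) in injured muscle. Anxa1, an annexin of membrane repair, had -1.01 (SE 0.46, limma adjusted p = 0.367) in uninjured and 0.0061 (SE 0.20, limma adjusted p = 0.996) in injured muscle. The myofibre marker sum was 113210 to 123867 RPM in uninjured WT and 164260 to 171338 RPM in uninjured KO, and its part in these values was not tested.

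For the regulators of Utrn transcription, such as Gabpa and Ppargc1a, 10 of 11 were tested by limma and 0 passed, with a median log2 change of -0.32 in uninjured and -0.11 in injured muscle. At an unadjusted p under 0.05, 1 was higher in uninjured muscle and 0 differed in injured muscle. Erf, an ETS repressor, had the largest change in uninjured muscle, 0.84 (SE 0.34, limma adjusted p = 0.307), from 2.38, 2.13 and 2.54 RPM in WT to 4.60, 4.57 and 5.82 RPM in KO, and 0.20 (SE 0.22) in injured muscle. Etv5 had -0.57 (SE 0.41, limma adjusted p = 0.567) in uninjured and -0.0394 (SE 0.18) in injured muscle.

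In the ChIP-seq list of Flag-Myf6, each of the 8 members held at least 1 peak inside the gene, 20 peaks in all. A peak in the gene or within 10 kb of it was found for 36.0% of 12045 expressed protein-coding genes, and one inside the gene for 25.2%. The members are long, with a median length of 310 kb against 24.2 kb for the expressed genes, so that the density of peaks has to be set beside the count. It was 4.34 peaks per Mb of gene over all 8. Over the 7 outside the X chromosome it was 7.68 per Mb, against 9.81 per Mb over all expressed genes outside X. By gene, it was 73.8 for Sgca and 66.7 for Sgcb, on 1 peak each, and 33.8 for Dag1. It was 11.4 for Dtna, 11.1 for Sntb1, 8.20 for Utrn and 1.96 for Sgcd. With a fold enrichment of at least 10, 6 of 8 members had a peak, and 13.1% of the expressed genes did. Peaks were called by the authors on 1 library, so no test between conditions is possible, and the scores below are theirs.

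Dmd held 3 peaks in 2390.4 kb, a density of 1.25 per Mb, where expressed genes on X had 2.49 per Mb. The strongest, chrX:82955928-82956136, had a fold enrichment of 11.5 and its summit lay 7145 bp after the start whose window is printed above. A second, chrX:82987842-82988033, had a fold enrichment of 10.6, and the third, chrX:83083903-83084080, one of 4.84. Utrn held 4 peaks, of which 3 lay between 45.94 and 48.39 kb from the outer 5′ end of the gene. The strongest of these, chr10:12823863-12824030, had a fold enrichment of 13.1.

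At Sgcb the 1 peak, chr5:73647248-73647404, with a fold enrichment of 6.44, had its summit 431 bp after the start, and its edge lay 334 bp from the promoter window printed above. At Sgca the 1 peak, chr11:94973357-94973518, with a fold enrichment of 10.1, had its summit 2889 bp after the start. Dag1 held 2 peaks, of which chr9:108261943-108262088, with a fold enrichment of 4.19, lay 1942 bp from the outer 5′ end of the gene. Sgcd held 2, the stronger at chr11:47765958-47766121 with a fold enrichment of 13.4, and Sntb1 held 3, the strongest at chr15:55791301-55791561 with a fold enrichment of 12.9. Dtna held 4 peaks, with the strongest of all members at a fold enrichment of 20.1, above 98.3% of the list. No promoter window of a member overlapped a peak, as 1.11% of all windows did.

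**Figure D4:**
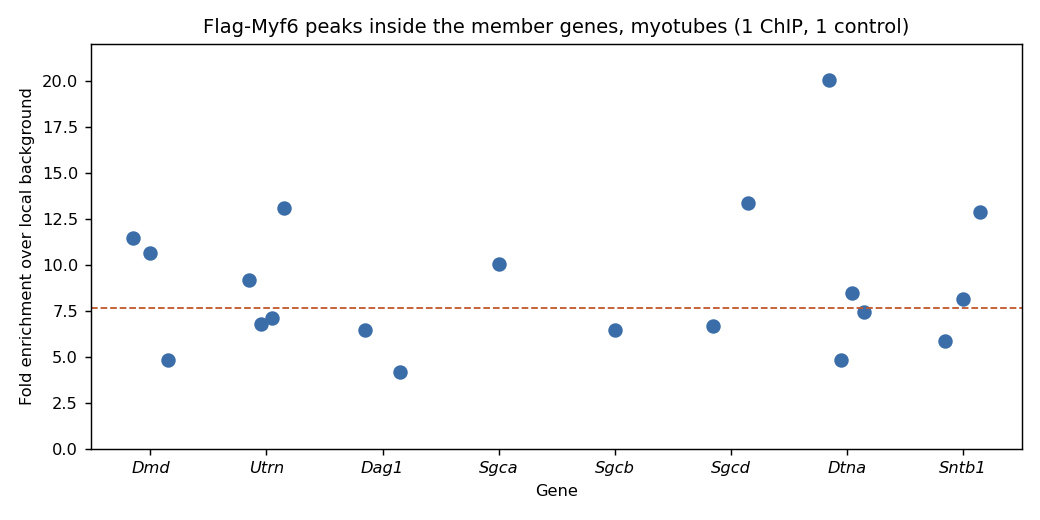
Fold enrichment over the local background (vertical axis) of the 20 Flag-Myf6 peaks inside the member genes, 1 point per peak, with the dashed line at 7.68, the median of the 12898 peaks of the list. Points of 1 gene are spread sideways for legibility, and 6 of the 8 genes have a peak at a fold enrichment of 10 or more.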

How the data were processed

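RNA was extracted with Trizol and sequenced from TruSeq RNA v2 libraries, per the labels' protocols. The submitters' processing notes name HISAT2 2.1.0, SAMtools, featureCounts, DESeq2, Bowtie 1.1.0 and MACS2 2.1.0.20140616, and the builds mm10 and GRCm38.p5; strand use and the handling of reads with several matches are not given in the sources used here. The authors deposited, per library and gene, RPM values scaled to 1000000, with their log2 fold change (WT over KO), p-value, standard error and q-value. Their peak list gives, per the file headers, the pileup signal at the summit, the fold enrichment, the −log10 q-value and the −log10 p-value. In every library 100% of the RPM values were whole multiples of 1 read, within 0.1 read.

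The test was limma 3.58.1 (R 4.3.3) with a mean-variance trend on log2(RPM + 1), over genes reaching 1 RPM in 3 or more of the libraries of a fit, two-sided, with Benjamini-Hochberg adjustment over all genes and a threshold of 0.05. Fold changes on this scale understate those of low genes. KO was compared with WT on the 6 libraries of each state, and injury and the interaction on all 12. Scripts were tested on simulated data. Alternatives were DESeq2 1.42.0 and edgeR 4.0.16 on recovered reads, other scalings, filters and pseudocount, a replicate block, all 12 libraries in 1 fit, no trend, the authors' q-values and each library left out. Leaving out both libraries of the second KO animal was chosen after seeing the data.

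L and R libraries of 1 number were read as 1 animal. The injury and interaction fits have no term for the animal, which entered as the replicate block in an alternative. Deviations of paired libraries from their group means correlated by 0.28, -0.23 and 0.02 in WT and by 0.02, 0.50 and 0.63 in KO. Floors are 3 reads and cover counting error only. The members and gene lists were chosen with earlier results of these data known. Besides the members and Myf6, named genes are those of a list that passed, otherwise at most the 3 with the largest change in a comparison, and the 3 genes of highest r per member. Peaks were assigned to genes with RefSeq coordinates of GRCm38.p6, which shares its chromosomes with mm10. No genome was used, so peak sequences are not shown.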

Additional observations from a re-analysis of the deposited data

Results flagged for a closer look

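For Sgca, alpha-sarcoglycan, the injured library was higher than the uninjured library in every WT animal and lower in every KO animal. Sgca was picked from the members by this rule of signs, and the share of all genes meeting it was not counted. The median log2 change of all genes, injured minus uninjured, was 0.09 in WT and 0.29 in KO. The log2 differences, injured minus uninjured, were 0.16, 0.13 and 0.09 in WT and -0.17, -0.13 and -0.01 in KO. The injury change in KO minus that in WT was -0.23 on the log2 scale (SE 0.27, interval -0.80 to 0.35), with an unadjusted p of 0.413 and a limma adjusted p of 0.99989, so the difference itself did not pass the test. With the animal number as a replicate block the unadjusted p was 0.368 (limma adjusted p = 0.965).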

How the results depend on the processing

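The count of members passing was 0 in all 5 comparisons under the alternatives run, except that it ranged from 0 to 1 when a library was left out of KO against WT in injured muscle. The exception was Sgcb (log2 0.67, limma adjusted p = 0.0153) without injured KO replicate 2, where 2343 of 12312 genes passed. Of 644 member values, 55 changed sign, and the cause was not tested.

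For KO against WT in uninjured muscle, scaling each library to its non-mitochondrial reads (median of all genes -0.32 in place of -0.18, and 0.01 with DESeq2) gave -0.0487 for Sgca, -0.11 for Sgcb and -0.0799 for Dtna. Sgcd was 0.14 with DESeq2, 0.12 with edgeR, 0.0659 with TMM, 0.00045 with upper quartile scaling and 0.14 in the authors' deposited table. In injured muscle Dag1 was -0.0175 with upper quartile scaling, and Dtna was 0.19 with DESeq2, 0.18 with edgeR and 0.22 in the authors' deposited table. For injury in KO, Sgcd was 0.0099 with scaling outside mitochondrial genes and 0.0415 without both libraries of the second KO animal. For the interaction, Sgcd was -0.22 with DESeq2, -0.19 with edgeR, -0.12 with TMM and -0.10 with upper quartile scaling, and Dtna was 0.0432 with scaling outside mitochondrial genes and 0.0319 without both libraries of the second KO animal.

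With 1 library left out, values in uninjured muscle ranged from -1.01 to 0.0868 for Dmd, -0.0739 to 0.85 for Dag1, -0.34 to 0.48 for Sgcb, -0.28 to 0.0473 for Sgcd, -0.47 to 0.61 for Dtna and -0.53 to 0.37 for the log2 ratio of Utrn to Dmd. In injured muscle they ranged from -0.0154 to 0.75 for Dmd, -0.14 to 0.44 for Dag1, -0.0736 to 0.0271 for Sgcd, -0.39 to 0.64 for Dtna and -0.73 to 0.41 for the ratio. For injury in WT they ranged from -0.37 to 0.31 for Dmd and -0.28 to 0.0517 for Sgcd, and in KO from -0.15 to 0.77 for Dag1, -0.13 to 0.0371 for Sgcd and -0.24 to 0.95 for Dtna. For the interaction they ranged from -0.79 to 0.13 for Dag1, -0.0351 to 0.78 for Sgcb, -0.0777 to 0.25 for Sgcd and -0.63 to 0.57 for Dtna.

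The count of all genes depended on the fit: in uninjured muscle 35 became 663 with DESeq2, 331 by the authors' q-values, 199 with scaling outside mitochondrial genes, 167 with all 12 libraries, 122 with upper quartile scaling, 110 with TMM, 55 with edgeR, 20 with a pseudocount of 0.1, 7 with 1 RPM in every library and 1 with no filter, and in injured muscle 34 became 427, 225, 27, 56, 30, 34, 33, 42, 4 and 19. With the replicate number as a block, which for KO against WT joins different animals, 752 and 0 genes passed. Same-numbered deviations there correlated by 0.04 to 0.37 in uninjured and -0.60 to -0.30 in injured muscle. The replicate block left 0 members passing in every comparison (unadjusted p 0.0384 in place of 0.186 for Dag1 with injury in WT, 0.0251 for Sgcb with injury in KO). The differences in the log2 ratio of Utrn to Dmd, -0.11 and -0.0036, cannot change with the block, since each replicate number holds 1 library per group. Sntb1 was at or under the floor in uninjured WT replicates 1 and 2 and in both libraries of the second KO animal, and depth limits Sgcd in uninjured WT replicate 2.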
